A study of Homo sapiens with 56 samples.

Results

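The genes that put peptides on MHC class I were followed through 56 RNA-seq libraries of mantle cell lymphoma (MCL) cell lines. The set holds 9 of the 21595 named genes of the deposited table, taken by gene symbol: HLA-B, HLA-C, HLA-E and HLA-F, B2M, TAP1, TAP2, TAPBP and NLRC5. All 9 passed the filter on low values (at least 1 CPM, a read count scaled to the library's total, in at least 2 libraries), as did 16498 genes in all. Under BTZ, 7 of the 9 genes fell, led by HLA-F, TAP1 and NLRC5, and no member rose, where 22.3% of all genes tested fell; with libraries scaled by size factors 4 members fell. Under IBR 1 of the 9 fell, HLA-F, where 3.89% of all genes fell, and that call was lost under 6 of 9 other settings. In MINO-VR 3 of 9 members were called higher than in MINO-P, where 3.64% of all genes were, and this count was between 0 and 7 under other settings. In Z138 libraries whose names end in A, 5 of 9 were called higher than in the other Z138 libraries, where 7.49% of all genes were, and 0 were without Z138 CLF 2.

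Mantle cell lymphoma is a B-cell lymphoma, and JEKO-1, Z138 and MINO are established lines of it. JEKO-1 and MINO-P gave 15 libraries each, Z138 and MINO-VR 13 each. What P and VR mean is not in the labels, and no label says whether a culture is 1 clone. Treatments were CON (5 libraries), taken as untreated because the design text names untreated samples, CLF (6), BTZ (6), IBR (11), YM155 (4), S63845 (6), and the combinations IBR_CLF (8), BTZ_CLF (4), IBR_YM155 (2), BTZ_YM155 (2), IBR_S63845 (1) and BTZ_S63845 (1). BTZ and IBR are common abbreviations of bortezomib, a proteasome inhibitor, and ibrutinib, an inhibitor of the kinase BTK. The labels do not spell these out, and CLF is used here as a code only. YM155 lowers expression of BIRC5, also called survivin, and S63845 blocks the MCL-1 protein. No dose or time is in the labels. Of the 37 groups by line and treatment, 22 rest on 1 library, 11 on 2 and 4 on 3. Nothing in the labels says that libraries of a group came from separate cultures, so p-values measure the spread between these libraries, which may be technical.

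MHC class I molecules show peptides cut from a cell's own proteins to CD8 T cells. Proteasomes, including the inducible immunoproteasome, cut the peptides; the transporter TAP1/TAP2 carries them into the endoplasmic reticulum; and tapasin (TAPBP) holds the empty heavy chain and its light chain B2M beside the transporter until a peptide binds. The coactivator NLRC5 and interferon-driven transcription factors switch these genes on together. Loss of class I expression is a known feature of several B-cell lymphomas.

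On GRCh38, 7 of the 9 genes lie in the MHC region of chromosome 6. The deposited table placed HLA-F (ENSG00000204642) at chr6:29722775-29738529, HLA-E (ENSG00000204592) at chr6:30489509-30494195, HLA-C (ENSG00000204525) at chr6:31268749-31272131 and HLA-B (ENSG00000234745) at chr6:31353872-31367068. TAP2 (ENSG00000204267) was at chr6:32821833-32838740, TAP1 (ENSG00000168394) at chr6:32845209-32853817 and TAPBP (ENSG00000231925) at chr6:33299694-33314285. B2M (ENSG00000166710) lay at chr15:44711358-44718852 and NLRC5 (ENSG00000140853) at chr16:56989485-57083532.

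Promoter sequences are shown because the members are known to share interferon-responsive elements and because interferon-stimulated genes moved with them in some of the comparisons. RefSeq promoter windows of GRCh38.p14 (250 bases before to 50 after a start site) were found for 7 of the 9 members, with 2 start sites for TAP1. The interferon-stimulated response element, searched as GAAA, any 2 bases and GAAA on both strands with overlaps allowed, was in windows of 5 members: HLA-F, B2M, TAP1, TAP2 and TAPBP. Of 35116 promoter windows of the same length, 3.57% held it. The windows of HLA-B and HLA-C held no match to these letters. Each line below gives 100 bases upstream of a start site, 5′ to 3′ on the gene's strand. Capitals mark matches to the interferon-stimulated response element only. Counted from the start site, the stretches run from -201 to -102 in HLA-F, -189 to -90 in B2M and -179 to -80 in TAP1 (its first start site). They run from -103 to -4 in TAP2, -100 to -1 in TAPBP, and -200 to -101 in HLA-B and HLA-C.
HLA-F, chr6:29723233-29723332, plus strand: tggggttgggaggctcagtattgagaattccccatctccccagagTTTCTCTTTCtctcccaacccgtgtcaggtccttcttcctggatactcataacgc
B2M, chr15:44711328-44711427, plus strand: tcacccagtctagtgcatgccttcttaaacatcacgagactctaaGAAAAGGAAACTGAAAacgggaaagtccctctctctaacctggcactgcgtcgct
TAP1, chr6:32853784-32853883, minus strand: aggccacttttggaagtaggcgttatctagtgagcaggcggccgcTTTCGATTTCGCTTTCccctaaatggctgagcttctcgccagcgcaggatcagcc
TAP2, chr6:32838743-32838842, minus strand: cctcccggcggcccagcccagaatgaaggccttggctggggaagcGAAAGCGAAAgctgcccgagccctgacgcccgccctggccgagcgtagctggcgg
TAPBP, chr6:33314079-33314178, minus strand: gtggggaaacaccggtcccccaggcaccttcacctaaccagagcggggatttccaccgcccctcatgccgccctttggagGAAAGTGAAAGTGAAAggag
HLA-B, chr6:31357280-31357379, minus strand: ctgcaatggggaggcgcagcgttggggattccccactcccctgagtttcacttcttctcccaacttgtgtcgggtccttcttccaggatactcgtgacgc
HLA-C, chr6:31272193-31272292, minus strand: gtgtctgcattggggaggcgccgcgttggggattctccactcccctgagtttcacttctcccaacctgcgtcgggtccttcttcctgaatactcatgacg

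In B2M, TAP1 and TAPBP 2 matches overlapped. The HLA-B window held the run GGGGATTCCC, which matched the searched kappa B pattern (GGG, any 5 bases, CC) on both strands, and both HLA-B and HLA-C windows held TGACG and CCAAT. Those letters are common: the kappa B pattern was in 58.7% of all windows, CCAAT in 34.6% and TGACG in 24.6%. The interferon-gamma-activated site pattern (TTC, any 3 bases, GAA) was in 1 member window, the second of TAP1, and in 7.66% of all windows. A match is a run of letters, and binding was not measured.

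Depth recovered from the table was 5.52 to 21.6 M reads per library (median 16.0), so that 3 reads equal 0.139 to 0.543 CPM. Mitochondrial transcripts took 1.91% to 80.5% of a library's CPM (median 6.69%), and 6 JEKO-1 libraries were above 50%: BTZ 1 and 2, BTZ_CLF 1 and 2, and IBR_CLF 1 and 2. Because CPM is a share of the library, every other gene reads lower there, and values with mitochondrial genes left out are given where this matters. Library names form an HK series (8 MINO-P and MINO-VR libraries) and an MCL series (48). In MINO-P and MINO-VR all CON, CLF, BTZ and BTZ_CLF libraries are HK. All their other libraries, IBR, YM155, S63845 and BTZ_YM155 among them, are MCL. Outside Z138, libraries of a group whose names differ by a final a were the most alike (8 pairs, chi-square per degree of freedom 4.24 to 44.8); Z138 pairs that differ by a final A (5 pairs, 67.0 to 322) and the 10 other pairs of a group (115 to 864) were further apart. The B-cell genes MS4A1, CD79A, CD79B and PAX5 and the MCL genes CCND1 and SOX11 were at 1 CPM or above in all 56 libraries. Of markers of other cells, CD3E (T cells) and KLRD1 (NK cells) were under 1 CPM in every library, but CD3D was above it in 1, CD3G in 13 (up to 10.1 CPM), CD247 in 35 (up to 42.3), NKG7 in 7 and NCAM1 in 6. The 4 myeloid markers were above 1 CPM in 1 to 24 libraries, COL1A1 (fibroblasts) in 44 (up to 71.9), and their part in the results was not tested.

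**Figure D1:**
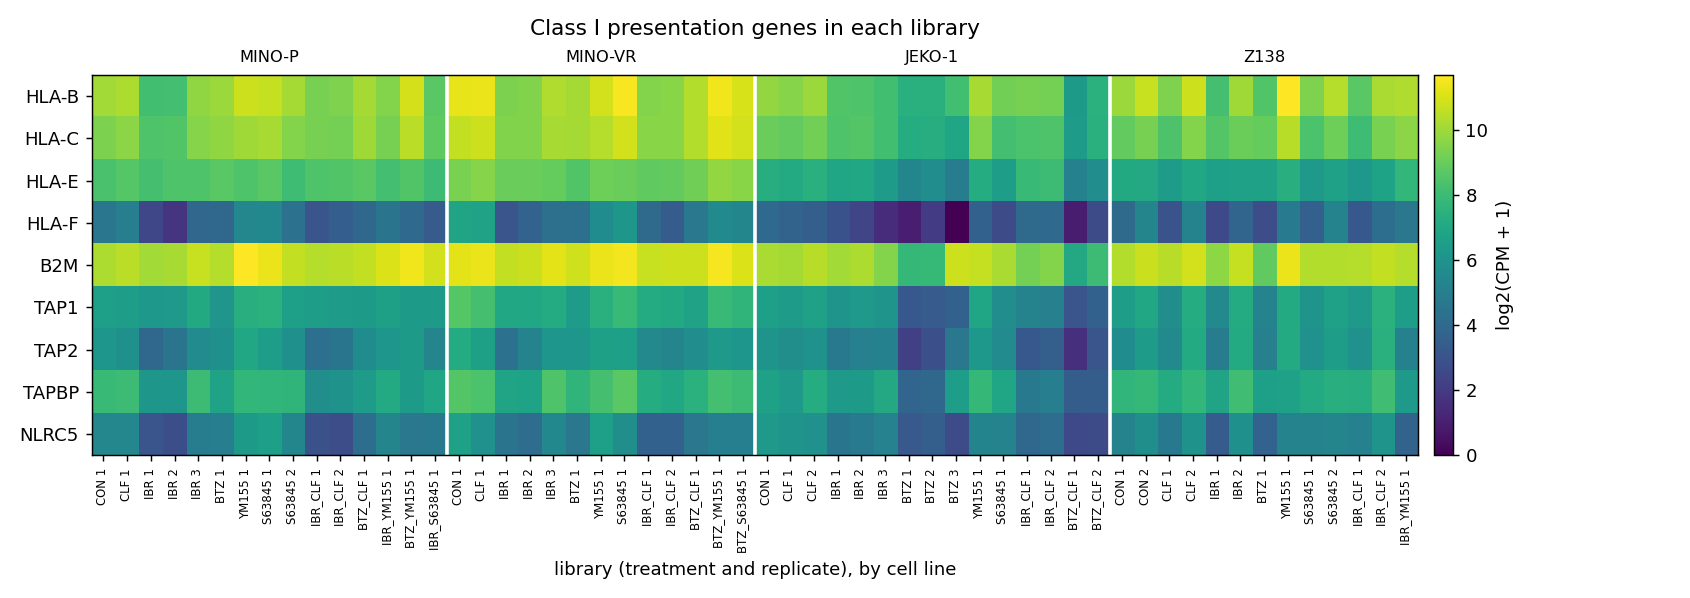
Each column is 1 of the 56 libraries, ordered by cell line and treatment, each row 1 member, and colour gives log2(CPM + 1). Colours compare libraries within a gene, since CPM is not corrected for gene length. JEKO-1 BTZ and BTZ_CLF columns are the darkest for most members, and the MINO-VR CON and CLF columns are among the brightest.

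Every member was detected in every library, apart from HLA-F in JEKO-1 BTZ 3, where 0 reads were recovered and 3 reads would be 0.199 CPM. HLA-B, a classical heavy chain that presents peptides to CD8 T cells, ran from 81.7 CPM in JEKO-1 BTZ_CLF 1 to 3220 CPM in Z138 YM155 1. Its median was 370 CPM in JEKO-1, 970 in MINO-P, 1030 in Z138 and 1280 in MINO-VR, with ranges that overlapped between all 4 lines. HLA-C, the other classical heavy chain in the set and a ligand of NK-cell KIR receptors, had the same order at the ends, with medians of 337 CPM in JEKO-1, 541 in Z138, 731 in MINO-P and 1310 in MINO-VR.

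HLA-E, which presents leader peptides of other class I chains to the NK receptor NKG2A, separated both MINO cultures from Z138. Its range was 257 to 418 CPM in the 15 MINO-P libraries and 366 to 878 CPM in the 13 MINO-VR libraries. It was 73.7 to 211 CPM in Z138, below every MINO-P and MINO-VR library, and 30.4 to 259 CPM in JEKO-1. The only JEKO-1 library above the lowest MINO-P library was IBR_CLF 2 (259 CPM). HLA-F, a nonclassical heavy chain, was highest in MINO-VR CON 1 (114 CPM) and had medians of 5.51 CPM in JEKO-1, 14.2 in MINO-P, 15.6 in Z138 and 24.7 in MINO-VR.

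B2M, the light chain shared by all class I molecules, ran from 131 CPM in JEKO-1 BTZ_CLF 1 to 3310 CPM in MINO-P YM155 1, and its line medians were 1060 CPM in JEKO-1, 1350 in Z138, 1570 in MINO-P and 2140 in MINO-VR. TAP1 medians were 51.7 CPM in JEKO-1, 89.5 in MINO-P, 92.6 in Z138 and 146 in MINO-VR. TAP2 medians were 25.1, 57.3, 60.3 and 70.5 CPM in the same order of lines, and those of TAPBP 77.2, 121, 156 and 258 CPM. NLRC5 had medians of 22 CPM in JEKO-1, 29.6 in MINO-P, 31.7 in MINO-VR and 36.9 in Z138. As deposited, JEKO-1 had the lowest median of every member except HLA-E, for which Z138 was lower (103 against 121 CPM), and neighbours in these orders overlapped in range. With mitochondrial genes left out, the NLRC5 median of JEKO-1 (36.3 CPM) was above those of MINO-P (32.8) and MINO-VR (34.1) and below Z138 (38.7). On that scale JEKO-1 kept the lowest median of the members other than HLA-E and NLRC5, with B2M at 1340 CPM against 1420 in Z138.

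BTZ was compared with CON to ask what the proteasome inhibitor did to the pathway. TAP1 in CON was 96.1 CPM in MINO-P, 387 in MINO-VR, 95 in JEKO-1, and 92.6 and 126 in Z138. Under BTZ it was 66.8 CPM in MINO-P, 84.2 in MINO-VR, 8.18, 9.23 and 11.4 in JEKO-1, and 36.2 in Z138. All 6 BTZ libraries lay below all 5 CON libraries. NLRC5, the class I coactivator, was also separated: CON libraries held 41.9 CPM in MINO-P, 103 in MINO-VR, 75.6 in JEKO-1, and 36.9 and 54.9 in Z138, whereas BTZ libraries held 30.9 in MINO-P, 23.9 in MINO-VR, 8.48, 10.5 and 5.38 in JEKO-1, and 11.9 in Z138. HLA-F went from 23.4 to 14.2 CPM in MINO-P, from 114 to 19.1 in MINO-VR, from 15.1 to 0.973, 3.08 and 0 in JEKO-1, and from 15.6 and 39.0 to 5.83 in Z138. For HLA-F the groups overlapped across lines but not within any line.

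In the model of treatment, cell line and library series over all 56 libraries (limma on log2(CPM + 1), Benjamini-Hochberg adjusted p, 40 residual degrees of freedom), 7 of 9 members fell and none rose. Of all genes tested, 24% passed and 22.3% passed as lower. HLA-F fell by 2.27 on the log2 scale (SE 0.47, adjusted p = 0.00035), TAP1 fell by 2.09 (SE 0.36, adjusted p = 3.05e-05) and NLRC5 fell by 2.01 (SE 0.48, adjusted p = 0.00161). HLA-B fell by 1.45 (adjusted p = 0.00475), TAPBP fell by 1.44 (adjusted p = 0.0147), TAP2 fell by 1.39 (adjusted p = 0.0314) and HLA-E fell by 0.99 (adjusted p = 0.0155). B2M and HLA-C did not pass, at -0.90 (adjusted p = 0.0901) and -0.78 (adjusted p = 0.0919). The median of the members was -1.44 and that of all genes -0.42. In bulk RNA, fewer cells of a type and less RNA per cell cannot be told apart.

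Scaling moved the size of these falls. With mitochondrial genes left out the median of all genes was -0.17, the members' median -1.07, and 5 of 9 members passed. With size factors the medians were -0.07 and -0.90, and 4 passed: HLA-F, TAP1, TAPBP and NLRC5. The all-gene calls were 288 higher and 3678 lower as deposited, 838 and 2366 without mitochondrial genes, and 1372 and 1888 with size factors. Leaving out JEKO-1 CON 1, the only CON library of that line, also left 4 of 9, and leaving out the 6 libraries above 50% mitochondrial left 5. All 9 members had a negative fold change in each of these fits.

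**Figure D2:**
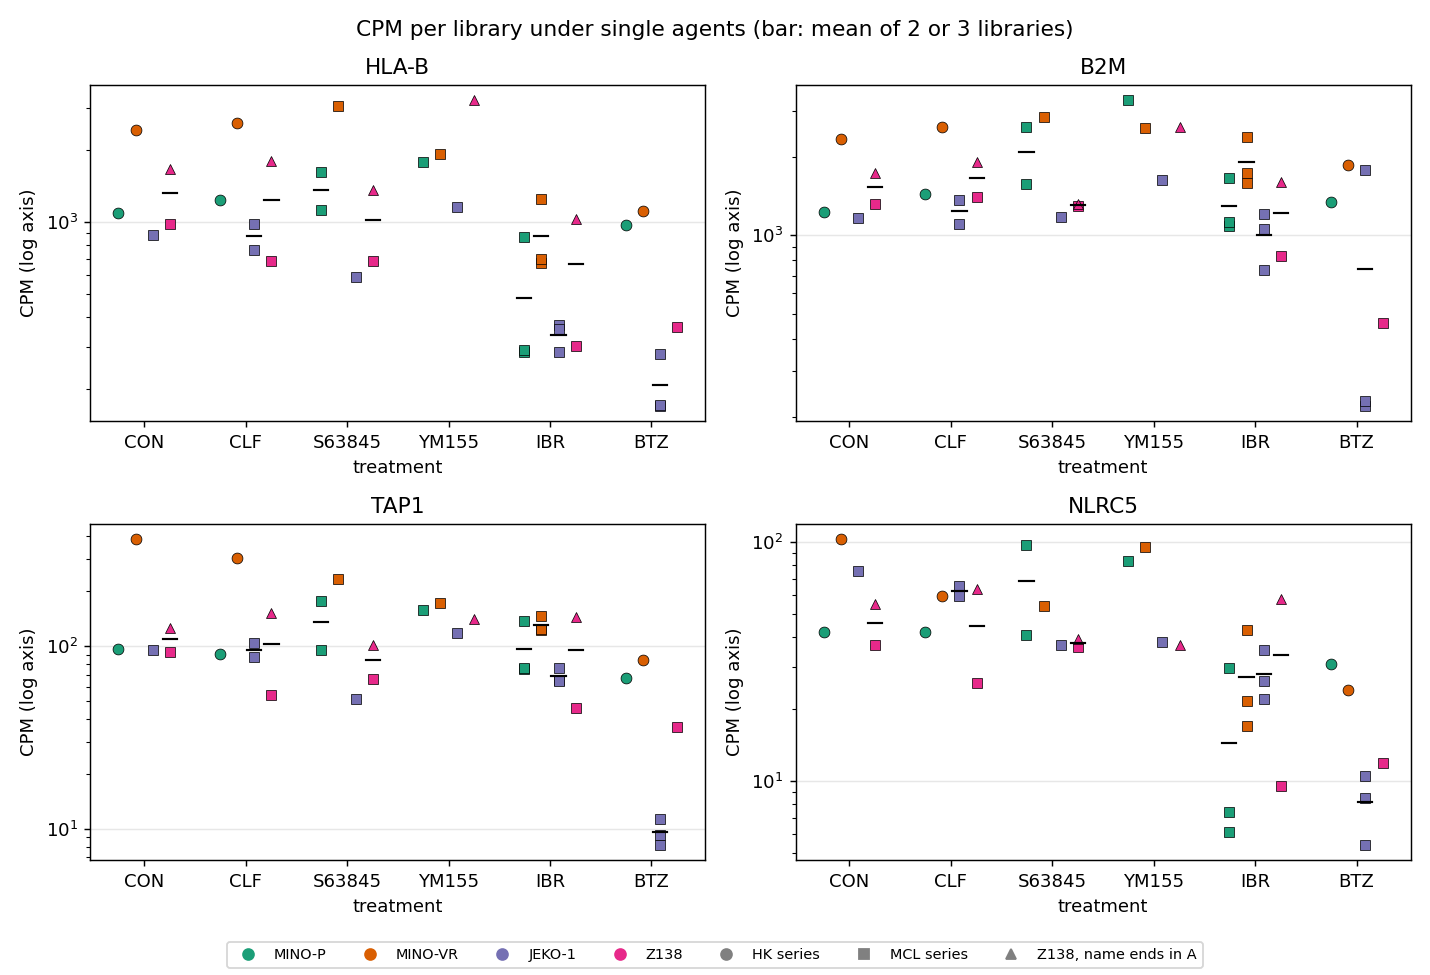
CPM of HLA-B, B2M, TAP1 and NLRC5 on a log axis in every library of CON and the 5 agents given alone, coloured by cell line; circles are HK libraries, squares MCL libraries and triangles Z138 libraries whose names end in A, and bars are means of 2 or 3 libraries. The JEKO-1 BTZ libraries sit at 8.18 to 11.4 CPM for TAP1, against 95 CPM in JEKO-1 CON.

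The size of the fall was then read within each line. As the difference between the mean of the BTZ libraries and the mean of the CON libraries of a line, the median of the members was -2.12 in JEKO-1, -1.55 in Z138, -1.05 in MINO-VR and -0.26 in MINO-P. Without mitochondrial genes these were -1.02, -1.55, -1.03 and -0.21. The Z138 CON mean includes CON 2, whose name ends in A, whereas the name of the Z138 BTZ library does not. Against Z138 CON 1, also without the letter, HLA-C was not lower (466 CPM in CON, 482 in BTZ), and the other members were. In MINO-P, HLA-C (659 CPM in CON, 869 in BTZ), HLA-E (318 and 417) and B2M (1230 and 1340) were higher in the BTZ library, while the other 6 members were lower. Whether the MINO cultures responded differently from JEKO-1 and Z138 was tested as an interaction over the 11 CON and BTZ libraries. No member passed (lowest adjusted p = 0.94, limma), nor did any of 14376 genes (0% called), with 379 genes and 0 members at an unadjusted p under 0.05. The members' median difference of responses was 1.07 against 0.63 over all genes, and the fit had 5 residual degrees of freedom.

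The JEKO-1 BTZ libraries were not alike either. BTZ 1 and 2 are a name pair, with a chi-square per degree of freedom of 4.24, against 864 and 772 with BTZ 3. BTZ 1 and 2, at 67.6% and 67.5% mitochondrial, held B2M at 220 and 230 CPM, and BTZ 3, at 9.92%, held it at 1780 CPM against 1170 CPM in CON. TAPBP showed the same split (12.9, 14.1 and 90.5 CPM, with 102 in CON). TAP1 (8.18, 9.23 and 11.4 CPM) and NLRC5 (8.48, 10.5 and 5.38 CPM) were low in all 3 libraries. With mitochondrial genes left out TAP1 was 25.2, 28.4 and 12.6 CPM in these libraries and 96.9 CPM in CON. HLA-B was 524, 531 and 314 CPM on that scale, with 898 CPM in CON.

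**Figure D3:**
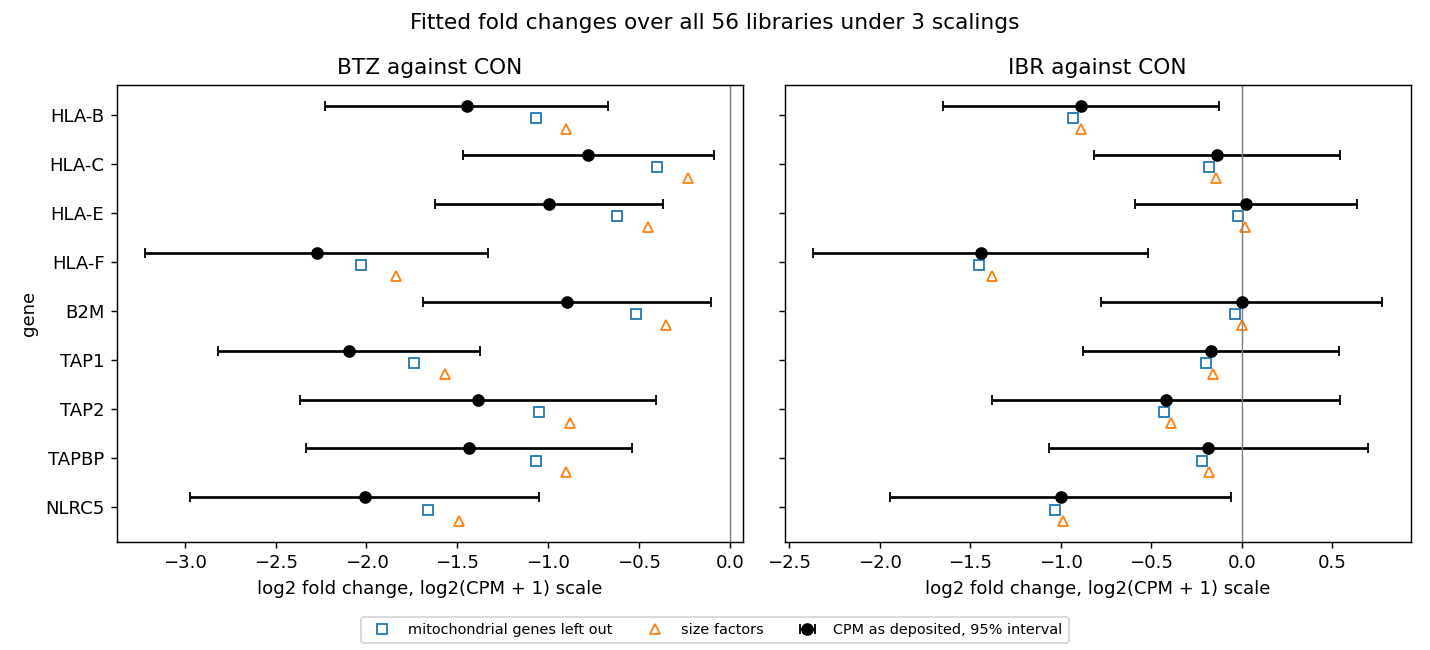
Fitted log2 fold changes of the 9 members for BTZ and IBR against CON; filled circles and bars are the values as deposited with 95% intervals, squares leave out mitochondrial genes and triangles use size factors. For BTZ all 27 points are below 0, and HLA-F, TAP1 and NLRC5 are the lowest under each scaling.

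Other genes of the pathway were counted from fixed lists on the deposited scale, to be read against the 22.3% of all genes that fell under BTZ. Of 8 genes for peptide supply and trimming, 6 fell and none rose: the immunoproteasome subunit PSMB9 fell by 3.34 (adjusted p = 2.51e-07), its partner PSMB8 fell by 2.42 (adjusted p = 3.08e-07) and the proteasome activator subunit PSME1 fell by 1.88 (adjusted p = 2.06e-05). Of 12 transcriptional regulators 7 fell, among them IRF9 (fell by 1.79, adjusted p = 0.0318) and RFX5 (fell by 1.58, adjusted p = 0.000537). Of 4 loading chaperones 1 fell, the peptide editor TAPBPL (fell by 1.75, adjusted p = 0.000705). Of 14 interferon-stimulated genes 4 fell, among which MX1 fell by 2.78 (adjusted p = 0.00654), IRF7 fell by 2.60 (adjusted p = 0.000188) and ISG15 fell by 2.46 (adjusted p = 0.0155). In the class I-like list, with 10 of 11 genes tested, the NK ligand ULBP2 rose by 1.47 (adjusted p = 0.0023) and FCGRT, the neonatal Fc receptor, fell by 1.43 (adjusted p = 0.02). TAP1 and PSMB9 overlap on opposite strands, and HLA-F overlaps HLA-F-AS1. How the counting used strand is not given in the sources used here, so reads of such partners cannot be told apart.

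IBR was compared with CON over 11 IBR libraries and the same 5 CON libraries that serve every comparison with CON. HLA-F in IBR was 4.69, 2.37 and 13.7 CPM in MINO-P, 7.59, 11.8 and 18.8 in MINO-VR, 6.77, 4.40 and 1.79 in JEKO-1, and 4.99 and 13.1 in Z138. Each of the 11 was below every CON library of its own line. Outside Z138 the first 2 values of each line are from a name pair. HLA-F fell by 1.44 on the log2 scale (SE 0.46, adjusted p = 0.0452, limma) and was the only member called. Of all genes 6.95% passed and 3.89% passed as lower. HLA-B had 287, 293 and 861 CPM in MINO-P, 675, 702 and 1250 in MINO-VR, 370, 358 and 286 in JEKO-1, and 304 and 1030 in Z138. Its fitted value was -0.89 (adjusted p = 0.155) and that of NLRC5 was -1.0 (adjusted p = 0.204). The other 6 members lay between -0.42 and 0.02, and the median of the members was -0.18 against 0.02 over all genes.

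The HLA-F call under IBR depended on the setting. It held with 4 name groups (-1.46, adjusted p = 0.0235), without the 6 libraries above 50% mitochondrial (-1.52, adjusted p = 0.0154) and without the series term (-2.05, adjusted p = 0.00133). It was lost (0 of 9 members) without the filter, with a pseudocount of 0.1, without mitochondrial genes, with size factors, with name pairs averaged and in JEKO-1 and Z138 alone, with fold changes of -1.38 to -1.58 and adjusted p of 0.0501 to 0.28. It was also lost on leaving out any 1 of 11 of the 16 libraries: JEKO-1 CON 1, IBR 2 or IBR 3, MINO-P IBR 1 or 2, MINO-VR CON 1, IBR 1 or IBR 2, or Z138 CON 1, CON 2 or IBR 1. Without the series term 3 members passed as lower (HLA-B, HLA-F and NLRC5). In MINO-P and MINO-VR, IBR and library series cannot be told apart. IBR 1 and 2 of both MINO cultures had 14.2% to 17.5% mitochondrial CPM, against 7.92% and 8.51% in IBR 3. Every member but HLA-E was lower in them than in IBR 3 in both cultures. HLA-E was lower in MINO-P but not in MINO-VR (518 and 516 against 492 CPM). The part of this in the result was not tested. In JEKO-1 against Z138, the interaction test of the IBR response called 0 members and 0 of 14192 genes (0%), with 952 genes and 0 members at an unadjusted p under 0.05 (limma, 4 residual degrees of freedom). Of 8 peptide supply genes PSMB8 fell by 1.5 under IBR (adjusted p = 0.00128), and none passed in the regulator, chaperone, class I-like or interferon lists.

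YM155, S63845 and CLF alone called no member. For YM155, HLA-B was 1780 CPM in MINO-P, 1920 in MINO-VR, 1150 in JEKO-1 and 3220 in Z138, against 1090, 2420, 881, and 981 and 1660 in CON. B2M was 3310, 2590, 1630 and 2610 CPM in the same lines, against 1230, 2350, 1170, and 1320 and 1740. So both genes were above their line's CON libraries in all 4 YM155 libraries, except HLA-B in MINO-VR. All 9 fitted values were positive with a median of 0.50 against 0.13 over all genes, 3 members had an unadjusted p under 0.05, and the lowest adjusted p was 0.26. Over all genes limma called 0.273%, and 2109 genes had an unadjusted p under 0.05. All-gene calls were 32 higher and 13 lower as deposited, 127 and 70 without mitochondrial genes, and 99 and 92 with size factors.

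Within lines the YM155 picture was mixed. The members' median difference from CON was 0.72 in MINO-P (8 of 9 higher), 0.32 in JEKO-1 (6 of 9), 0.38 in Z138 (7 of 9) and -0.30 in MINO-VR (1 of 9). The Z138 YM155 library is one whose name ends in A, and in MINO-P and MINO-VR the CON libraries are of the other series. The interferon-stimulated list had 14 of 14 positive fitted values under YM155 with a median of 2.41, and none passed. It also had 14 of 14 positive under S63845 (median 0.63) and 12 of 14 under CLF (median 0.52), again with none called. TAPBP was 222 CPM in the JEKO-1 YM155 library against 102 in CON, and 101 CPM in the Z138 YM155 library against 205 and 217 in CON.

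S63845 called 0 of 16498 genes (0%) with 414 at an unadjusted p under 0.05, none of them a member, and CLF called 0 (0%) with 58, none of them a member (limma). NLRC5 under S63845 was 97.0 and 40.7 CPM in MINO-P, 53.9 in MINO-VR, 37 in JEKO-1, and 36.5 and 39.2 in Z138. In JEKO-1 and MINO-VR this was below CON (75.6 and 103 CPM), and of the 2 MINO-P libraries 1 was above CON (41.9 CPM) and 1 just below. HLA-B under CLF was 1230 CPM in MINO-P, 2580 in MINO-VR, 765 and 981 in JEKO-1, and 688 and 1790 in Z138. In JEKO-1 the 2 CLF libraries lay on either side of CON (881 CPM), and in Z138 the lower value belonged to the library without a final letter, as it did in CON.

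The combinations IBR_CLF, BTZ_CLF and BTZ_YM155 were each tested against 1 of their agents. None called a member: IBR_CLF against IBR (0.0121% of genes called, 1521 genes and 1 member at an unadjusted p under 0.05), BTZ_CLF against BTZ (0% called, 986 genes and 0 members) and BTZ_YM155 against YM155 (0.339% called, 1552 genes and 0 members), all with limma. For BTZ_YM155 against YM155 the all-gene calls were 32 higher and 24 lower as deposited, 59 and 36 without mitochondrial genes, and 103 and 38 with size factors. HLA-B was 1970 CPM in MINO-P BTZ_YM155 1 and 2810 CPM in MINO-VR BTZ_YM155 1, both above the BTZ (970 and 1110) and YM155 (1780 and 1920) libraries of their lines. NLRC5 did not follow: it was 24.7 and 31.7 CPM in these combinations, near BTZ (30.9 and 23.9) and below YM155 (82.9 and 94.9). HLA-C showed the pattern of HLA-B, with 1450 and 2280 CPM in the combinations, 869 and 1100 in BTZ, and 1030 and 1360 in YM155. In both cultures the BTZ libraries are HK and the YM155 and BTZ_YM155 libraries MCL. For BTZ_YM155 against BTZ, treatment and library series therefore cannot be told apart. IBR_YM155, with 1 library in MINO-P and 1 in Z138, was not tested. Its members' median difference from YM155 was -0.72 in MINO-P (0 of 9 higher) and -0.80 in Z138 (1 of 9 higher), where the YM155 library ends in A and the IBR_YM155 library does not; without mitochondrial genes these were -0.39 and -0.81. Its median difference from IBR was 0.75 in MINO-P (8 of 9 higher) and 0.22 in Z138 (6 of 9 higher). The Z138 IBR mean includes IBR 2, whose name ends in A. Against Z138 IBR 1, which has no letter, every member but TAPBP was higher in IBR_YM155. HLA-B was 1270 against 304 CPM, NLRC5 12.2 against 9.54 and TAPBP 76.9 against 111.

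JEKO-1 IBR_CLF is a group whose direction depended on scaling. As deposited HLA-E was 242 and 259 CPM, against 121, 127 and 83.4 under IBR and 154 in CON. B2M was 609 and 724 CPM, against 1060, 1210 and 735 under IBR. Both IBR_CLF libraries, which are a name pair, were about as rich in mitochondrial CPM as each other (60.7% and 59.1%). The IBR libraries had 13.5% to 20.9%. With mitochondrial genes left out, HLA-E was 615 and 633 CPM against 153, 158 and 96.4 under IBR, HLA-B 1590 and 1490 against 468, 447 and 330, and B2M 1550 and 1770 against 1340, 1510 and 849. The members' median difference of IBR_CLF from IBR in JEKO-1 was -0.56 as deposited and 0.47 without mitochondrial genes, with 7 of 9 members higher on the latter scale. TAP2 and TAPBP were lower on both scales. Of all JEKO-1 libraries, these 2 held the most HLA-E on either scale. In the other lines the members' median differences of IBR_CLF from IBR without mitochondrial genes were 0.04 in MINO-P, -0.22 in MINO-VR and 0.31 in Z138.

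MINO-VR was compared with MINO-P, the other culture of the same line. In CON, TAP1 was 387 CPM in MINO-VR and 96.1 in MINO-P, HLA-F 114 and 23.4, HLA-B 2420 and 1090, and NLRC5 103 and 41.9. Over the 9 treatments that both cultures had, MINO-VR was higher in 9 of 9 for HLA-B, HLA-C, HLA-F, TAP1 and TAPBP, in 8 for HLA-E and B2M, and in 7 for TAP2 and NLRC5. The median differences over treatments ran from 0.39 for TAP2 to 0.98 for HLA-F. The gap was wide in CON and narrow in BTZ for TAP1 (2.0 and 0.33) and HLA-F (2.24 and 0.40), a contrast of 1 library a group that was not tested.

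In the fit over all libraries, 3 of 9 members were called, all higher in MINO-VR, where 5.57% of all genes passed and 3.64% passed as higher. TAP1 rose by 0.78 (SE 0.23, adjusted p = 0.0328, limma), HLA-F rose by 0.96 (SE 0.30, adjusted p = 0.0494) and HLA-E rose by 0.64 (SE 0.20, adjusted p = 0.0481). HLA-C (0.69, adjusted p = 0.0542), TAPBP (0.80, adjusted p = 0.0966) and HLA-B (0.65, adjusted p = 0.137) did not pass. The median of the members was 0.65 and that of all genes 0.02. The count moved with the setting: it was 7 of 9 in a fit of the shared treatments of these 2 cultures alone, 6 with 4 name groups, 5 without the 6 libraries above 50% mitochondrial, 1 without the filter, with a pseudocount of 0.1 or without the series term, and 0 with name pairs averaged. It was 0 on leaving out MINO-P CON 1, CLF 1, IBR 1, IBR 2 or BTZ_YM155 1, or MINO-VR BTZ 1, BTZ_CLF 1, BTZ_YM155 1 or S63845 1. It was 1 on leaving out MINO-P IBR_CLF 1, IBR_CLF 2, IBR_YM155 1 or S63845 2, or MINO-VR CON 1, CLF 1, IBR 2 or IBR 3. All 9 fold changes were positive in each fit.

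**Figure D4:**
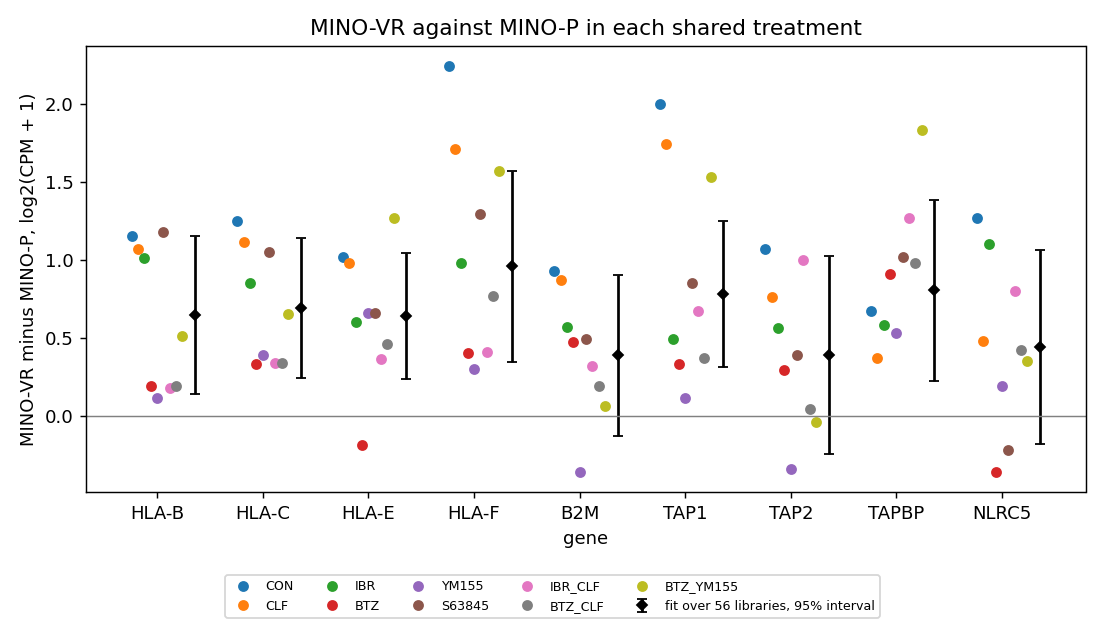
Difference of MINO-VR from MINO-P in log2(CPM + 1) for each member and each of the 9 shared treatments (points), with the fitted difference over all 56 libraries and its 95% interval (diamonds). HLA-B, HLA-C, HLA-F, TAP1 and TAPBP are above 0 in 9 of 9 treatments.

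Of 14 interferon-stimulated genes 7 were called higher in MINO-VR, where 3.64% of all genes were. They were led by IFI44L (4.0, adjusted p = 0.00225, limma), IFI44 (2.42, adjusted p = 0.0104) and IFI6 (2.33, adjusted p = 0.04), and the list's median was 1.66. In the CON libraries MX1, an antiviral GTPase, was 3060 CPM in MINO-VR and 285 in MINO-P. The gap differed between agents given alone. MX1 was 1380 and 209 CPM in CLF, 351 and 224 in BTZ, but 953 and 1570 in YM155. In IBR it was 782, 802 and 1230 CPM in MINO-VR and 45.6, 50.8 and 324 in MINO-P. In S63845 it was 1060 CPM in MINO-VR and 1180 and 458 in MINO-P. How this list depends on treatment or setting was not tested. Of the peptide supply list PSMB8 rose (0.73, adjusted p = 0.0148), and of the regulators and chaperones none passed. In the class I-like list HFE rose by 0.82 (adjusted p = 0.0103), FCGRT fell by 1.82 (adjusted p = 3.23e-05) and ULBP3 fell by 0.92 (adjusted p = 0.0475).

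JEKO-1 differed from MINO-P in 4 of 9 members, all lower, where 37.3% of all genes passed and 25.3% passed as lower. HLA-E fell by 1.40 (SE 0.23, adjusted p = 2.14e-06, limma), HLA-C fell by 0.83 (adjusted p = 0.00787), B2M fell by 0.79 (adjusted p = 0.0287) and TAP1 fell by 0.77 (adjusted p = 0.0177), and the fitted value of NLRC5 was 0.37 (adjusted p = 0.431). Without mitochondrial genes 1 member passed, HLA-E, and without the series term 8 did. The median of all genes was -0.18 as deposited and 0.06 without mitochondrial genes, and that of the members -0.68 and -0.29. All-gene calls were 1987 higher and 4169 lower as deposited, 3915 and 2810 without mitochondrial genes, and 3512 and 3291 with size factors. Of the other lists, counted as deposited, 2 of 8 peptide supply genes were lower: the peptidase ERAP2 fell by 0.98 (adjusted p = 0.0165) and NPEPPS fell by 0.79 (adjusted p = 0.00915). Among the 4 chaperones TAPBPL was 1.24 higher (adjusted p = 0.000431), 1 of 12 regulators was higher and 2 lower, 1 of 10 class I-like genes higher and 3 lower, and 1 of 14 interferon-stimulated genes higher.

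Z138 and JEKO-1 differed in 7 of 9 members as deposited, all higher in Z138, where 57.5% of all genes passed and 40.4% passed as higher. TAP2 was 1.3 higher (SE 0.32, adjusted p = 0.000481, limma), TAPBP 1.13 (adjusted p = 0.000835), HLA-F 0.83 (adjusted p = 0.0176), TAP1 0.80 (adjusted p = 0.00323), HLA-B 0.78 (adjusted p = 0.00717), HLA-C 0.63 (adjusted p = 0.015) and B2M 0.59 (adjusted p = 0.0448). HLA-E (-0.05) and NLRC5 (0.09) did not pass. Without mitochondrial genes, and likewise with size factors, 3 passed, TAP2 and TAPBP as higher and HLA-E as lower, and without the 6 libraries above 50% mitochondrial 2 passed, HLA-B and HLA-F. With 4 name groups, which set the Z138 libraries ending in A apart, 4 passed. The median of all genes was 0.31 as deposited and -0.05 without mitochondrial genes, and all-gene calls were 6672 higher and 2819 lower as deposited, 4425 and 4952 without mitochondrial genes, and 4620 and 4730 with size factors. Of the 14 interferon-stimulated genes 8 were lower in Z138, led by OAS3, which fell by 5.72 (adjusted p = 3.26e-12). Within Z138 these genes differed by the final letter of the name. OAS3 was 0.359 to 32.0 CPM in the libraries ending in A and 0 to 0.134 in the others. How the count of this list depends on the letter was not tested. As deposited, 5 of 8 peptide supply genes, 3 of 4 chaperones and 4 of 12 regulators were higher in Z138. Of 10 class I-like genes 3 were higher and 4 lower. How these list counts depend on scaling was not tested.

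Z138 libraries of the same treatment differed by the final letter of their names. This comparison was added after the values were seen, and the labels do not say what the A means. In CON, HLA-B was 981 CPM without the letter and 1660 with it; in CLF it was 688 and 1790, in IBR 304 and 1030, in S63845 685 and 1360, and in IBR_CLF 415 and 1170. So HLA-B was higher in the A library in 5 of 5 treatments, and the same held for all members but HLA-E, which was higher in 4 of 5. TAP1 was 102 to 177 CPM in the 6 A libraries and 36.2 to 92.6 in the 7 others, TAP2 85.0 to 170 and 29.8 to 60.3, and NLRC5 37.1 to 65.2 and 9.54 to 36.9, so these 3 did not overlap. From CON to IBR, TAP1, TAP2, TAPBP and NLRC5 went down without the letter and up with it. TAP1 went from 92.6 to 46.2 CPM and from 126 to 145, and NLRC5 from 36.9 to 9.54 and from 54.9 to 57.6. HLA-B, HLA-C, HLA-E, HLA-F and B2M were lower in IBR in both letter forms. These contrasts were not tested.

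In a fit of the 13 Z138 libraries with treatment and letter as terms, 5 of 9 members were higher with the letter A, where 11.3% of all genes passed and 7.49% passed as higher. HLA-F was 1.47 higher (SE 0.23, adjusted p = 0.00777, limma), TAP2 1.33 (adjusted p = 0.0117), HLA-B 1.28 (adjusted p = 0.0102), TAP1 1.08 (adjusted p = 0.0142) and HLA-C 0.81 (adjusted p = 0.0291). NLRC5 was at 1.07 (adjusted p = 0.0514), and the median of the members was 1.07 against 0.16 over all genes. Without Z138 CLF 2 no member passed, and without CLF 1, 1 did. All-gene calls were 1050 higher and 534 lower as deposited, 983 and 553 without mitochondrial genes, and 817 and 760 with size factors. All 14 interferon-stimulated genes rose, with a median of 4.14: IFI44L was 4.01 to 717 CPM in the A libraries and 0 to 0.402 in the others, and MX1 was 272 to 613 and 20.9 to 54.5. IRF9 (3.38, adjusted p = 0.00276) and STAT2 (1.12, adjusted p = 0.038) rose among the regulators, and PSMB9 (1.06, adjusted p = 0.0336) among the peptide supply genes. Z138 BTZ 1 and IBR_YM155 1 carry no A, and Z138 YM155 1 does, so each of these treatments is represented in Z138 by 1 letter form only.

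**Figure D5:**
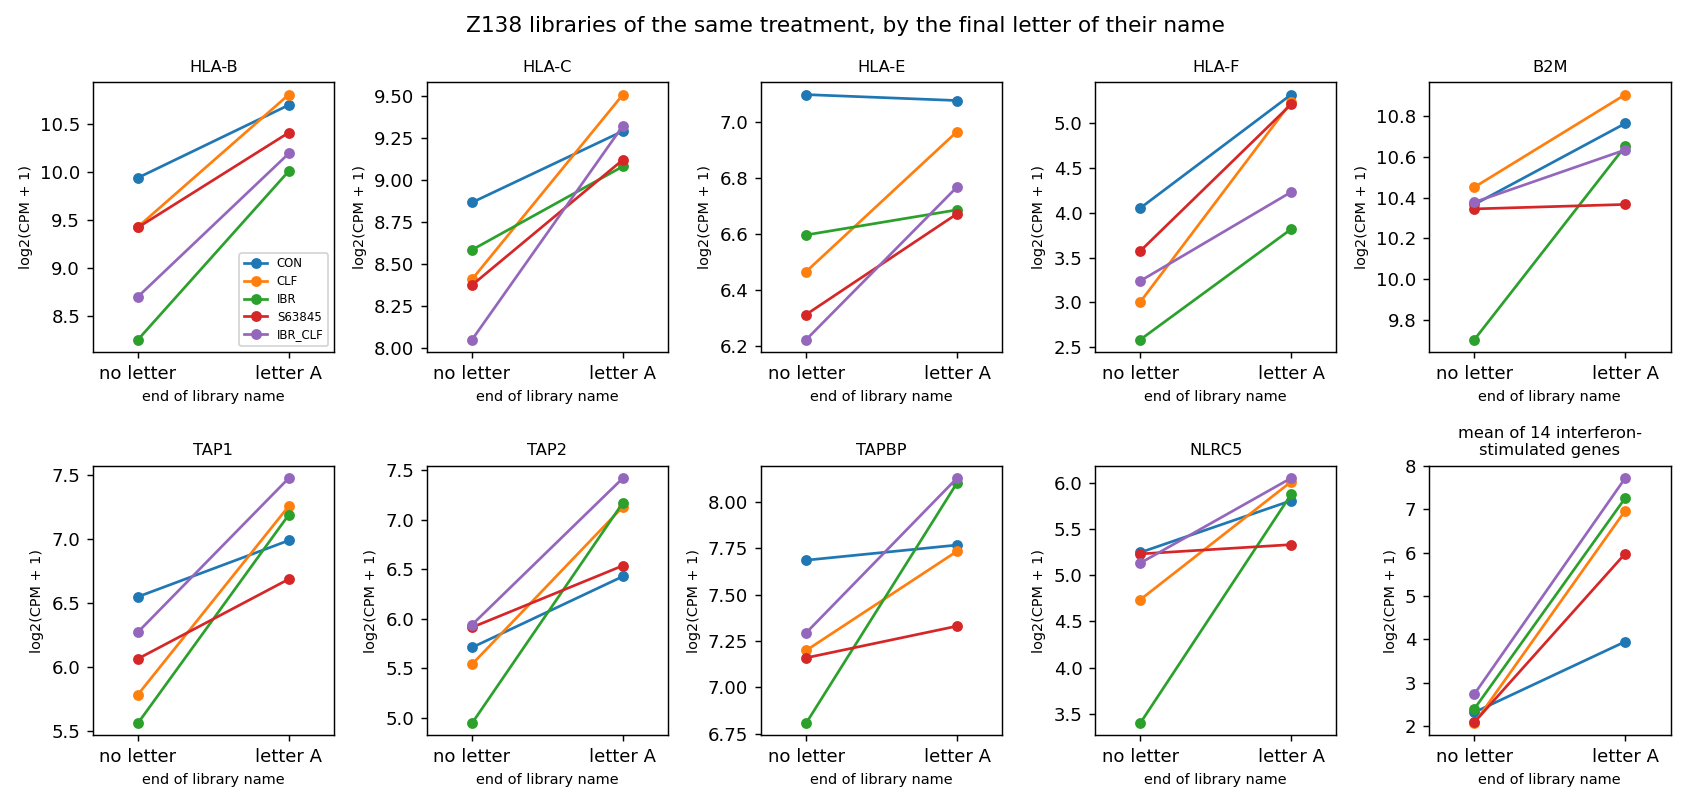
log2(CPM + 1) of each member, and the mean over 14 interferon-stimulated genes, in the Z138 library without a final letter (left) and with the final letter A (right) for 5 treatments, joined by lines. Lines rise in 5 of 5 treatments for every member except HLA-E, which is flat in CON.

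Across the 37 group means of line and treatment, all pairs of members had a positive correlation on the deposited scale. The median Pearson r over the 36 pairs of members was 0.75 (0.29 to 0.92) on log2(CPM + 1), 0.70 (0.31 to 0.91) after each line's mean was subtracted, and 0.57 (-0.14 to 0.87) when mitochondrial genes were also left out. HLA-B with HLA-C had the highest r on both centred scales, at 0.91 and 0.87. HLA-E with TAPBP had the lowest on the last of these, at -0.14. On that scale HLA-E was also near 0 with TAP2 (-0.07) and NLRC5 (0.03), as was HLA-C with TAPBP (0.09). The r of arbitrary pairs of genes was not computed. Groups share libraries' depth and composition, and these values are descriptions. Among 9453 other genes with a mean of at least 10 CPM, those most like the members' mean after centring on the line included EHD4 (r = 0.90), PSME2 (0.89), LAP3 (0.88) and RNPS1 (0.87). With mitochondrial genes left out they included MX1 (0.83), NFKBIA (0.82) and PSME2 (0.81).

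Counting of near-identical sequence could touch some members. Of the 50-base windows of each member's longest reference transcript, 35.8% of TAP2, 6.71% of HLA-C, 5.99% of TAPBP, 5.13% of HLA-E and 2.54% of HLA-B also occur in another gene's transcripts, as do 1.70% of HLA-F, 1.07% of TAP1 and 0% of B2M and NLRC5. In the reference annotation TAP2 overlaps another protein-coding gene model on the same strand. The gene models of HLA-B and HLA-C overlap each other there too. At the coordinates of the deposited table given above, HLA-B and HLA-C do not overlap. HLA alleles of a line that differ from the reference can also lose reads, which these files do not show.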

How the data were processed

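Poly-A RNA was sequenced from 56 libraries of 4 MCL cultures, with 150-base paired ends per the series' design text. The authors deposited 1 table of log2 values per gene and library; with the log2 undone, libraries summed to 999980 to 1000001 CPM, so the unit is log2(CPM + 1). Partek and hg38 are named in the submitters' processing notes. Aligner, counter, annotation and strand use are not given in the sources used here. Values under 1e-06 were set to 0, a blank row (at most 0.0008% of a library) was left out, and 0 value columns were unmatched. Depth was recovered from the spacing of low values, of which 76.7% to 89.2% came out whole within 0.05 reads, too few for a count test.

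Libraries were grouped by the labels' cell line and treatment. Tests were two-sided, with limma 3.58.1 in R 4.3.3 and its mean-variance trend, on the deposited log2 scale, for genes with at least 1 CPM in 2 libraries of the fit, called at an adjusted p under 0.05; the script was tested on simulated data. Fold changes on this scale understate low genes. Size factors are medians of ratios between libraries. The series term of the model is shared by MINO-P and MINO-VR treatments that occur in 1 series only, and rests on the other lines. Tables were handled in Python 3.11.15.

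Members, gene lists, comparisons and tests were chosen with earlier results of these data known. All 9 members are named; of other lists, up to 3 called genes with the largest change per comparison. Genes most like the members were the 5 with the highest r; some genes that these rules name are not reported here. Ranks for uncentred means are in the tables only. Promoters of HLA-E and NLRC5 are not shown. Alternatives are given in the closing section.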

Additional observations from a re-analysis of the deposited data

Results flagged for a closer look

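For the 5 agents given alone, and only in lines whose treated and CON libraries are of the same name series, 7 cases were found in which every treated library of 1 line lay more than 0.25 above its line's CON mean and every one of another line more than 0.25 below, on the log2(CPM + 1) scale. None of these differences was tested, and most rest on 1 library a group. Under BTZ, HLA-C was 0.40 above CON in MINO-P and 0.51 below it in MINO-VR, a difference of 0.91, and 1.88 below it in JEKO-1, a difference of 2.28. HLA-E was 0.39 above CON in MINO-P and below it in MINO-VR (difference 1.21), JEKO-1 (2.31) and Z138 (0.77). The JEKO-1 values include the libraries at 67.6% and 67.5% mitochondrial CPM; with mitochondrial genes left out, the JEKO-1 values were -0.78 for HLA-C and -0.83 for HLA-E, and the MINO-P values 0.45 and 0.44. Under YM155, TAPBP was 1.11 above CON in JEKO-1 and 1.06 below it in Z138, a difference of 2.17. Under CLF, HLA-F was 0.40 above CON in MINO-P and 0.40 below it in JEKO-1, a difference of 0.80.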

How the results depend on the processing

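The counts of members called were recomputed under each alternative; the 4-level name group, the fit without the 6 libraries above 50% mitochondrial and the Z138 letter comparison were chosen after seeing the data. Of 110 recomputed counts outside the leave-one-out fits, 88 stayed within 1.5 times the value reported and 22 did not. The 88 include every count of the 8 comparisons that stayed at 0, since 0 against 0 was taken as within. All 22 came from comparisons that called a member, so the 88 overstate how stable the reported calls are. For BTZ against CON (7 of 9), size factors gave 4. For IBR (1 of 9), no filter, a pseudocount of 0.1, mitochondrial genes left out, size factors, pairs averaged, and JEKO-1 and Z138 only gave 0, no series term gave 3, and leaving out the 6 libraries gave 2. For MINO-VR against MINO-P (3 of 9), no filter, a pseudocount of 0.1 and no series term gave 1, pairs averaged 0, shared treatments 7, name groups 6 and leaving out the 6 libraries 5. For JEKO-1 against MINO-P (4 of 9), mitochondrial genes left out gave 1 and no series term 8. For Z138 against JEKO-1 (7 of 9), mitochondrial genes left out and size factors gave 3, name groups 4 and leaving out the 6 libraries 2. Leaving out each library in turn gave 4 to 9 members for BTZ, 0 to 1 for IBR, 0 to 4 for MINO-VR against MINO-P, 3 to 5 for JEKO-1 against MINO-P, 6 to 7 for Z138 against JEKO-1 and 0 to 5 for the Z138 letter. The other 8 comparisons stayed at 0 members in every fit run.

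Members that changed direction were not called in the reported fit. HLA-E under IBR (0.02) was -0.02 without mitochondrial genes, -0.09 with pairs averaged, -0.32 without the series term, -0.49 in JEKO-1 and Z138 only and -0.21 without the 6 libraries. Leaving out 1 library gave -0.13 to 0.17 for HLA-E, -0.30 to 0.09 for HLA-C, -0.18 to 0.16 for B2M and -0.39 to 0.05 for TAP1 under IBR. In JEKO-1 against MINO-P, NLRC5 was -0.05 without the series term and TAP2 0.11 without the 6 libraries. In Z138 against JEKO-1, HLA-E was 0.01 with pairs averaged, 0.01 without the series term and 0.04 without the 6 libraries, NLRC5 was -0.41 without mitochondrial genes, -0.36 with size factors and -0.04 without the 6 libraries, and leaving out 1 library gave -0.19 to 0.05 and -0.09 to 0.21. The cause was not tested. No paired analysis over all groups was possible because the labels give no replicate numbers. The final letters of names match Z138 libraries between treatments, but their meaning is not stated. They entered as terms only in the name-group and Z138 letter fits. JEKO-1 and Z138 alone could not be used for comparisons with a MINO culture, and the IBR interaction without JEKO-1 CON 1 has no JEKO-1 control and was not run. Where a group is left with 1 library, that library is assumed to vary like the others. Depth limits HLA-F in the shallow JEKO-1 libraries, where 3 reads are up to 0.543 CPM.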
